A study of Mus musculus with 6 samples.

Results

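The matrix metalloproteinases (MMPs), the ADAMTS proteases with their ADAMTS-like relatives, and the tissue inhibitors of metalloproteinases (TIMPs) were examined in the mesenchyme of the developing mouse molar. Members were the rows of the expression table whose gene symbol begins with Mmp, Adamts, Adamtsl or Timp followed by a digit, leaving out Mmp20. This gave 50 of 25899 genes: 22 MMPs, 19 ADAMTS proteases, 5 ADAMTS-like proteins and 4 TIMPs. RNA came from the apical portion of the dental mesenchyme of lower first molars at postnatal day 7.5, when the molar roots begin to grow. All 6 libraries carried loxP-flanked (floxed) Bmpr1a alleles on a mixed background, labelled C57Bl6/129S6/SvEvTac. Its product is a type I receptor of the bone morphogenetic protein pathway. The 3 mutants carried Gli1-CreER in addition, a tamoxifen-activated recombinase made in cells that express Gli1, and the 3 controls were littermates labelled with the floxed alleles alone. The tamoxifen schedule, and whether controls received it, are not given in the sources used here, and neither is the number of animals behind a library. Controls 1 and 2 and mutants 1 and 2 came from litter 1, and control 3 and mutant 3 from litter 2.

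The MMPs are zinc-dependent proteases that cut collagens, gelatin and other proteins of the extracellular matrix, some of them secreted and some anchored in the cell membrane. ADAMTS proteases are secreted relatives with thrombospondin repeats that trim procollagens and cut large proteoglycans, whereas the ADAMTS-like proteins keep those repeats and lack the protease domain. TIMPs bind the catalytic site of MMPs and of several ADAMTS proteases and block it. In teeth and bone these proteins act on the collagen-rich matrix that odontoblasts and osteoblasts lay down, on the path that osteoclasts open for eruption and on the pulp's own matrix.

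The sequence that defines the proteases as a family is the zinc site, a stretch of 11 codons. Its codons 1, 5 and 11 encode the 3 histidines that hold the zinc ion, its codon 2 the catalytic glutamate, and its codon 8 usually a glycine. The site was searched in frame in the coding sequence of each member (GENCODE M21 annotation of mm10). The glycine form was found in 22 of 22 MMPs and 13 of 19 ADAMTS proteases. An asparagine at codon 8 was found in 5 further ADAMTS proteases (Adamts1, Adamts4, Adamts9, Adamts15 and Adamts20). Adamts8 matched neither form, and no match was found in the 5 ADAMTS-like proteins or the 4 TIMPs. Below are the sites of the members on which the results turn, 5′ to 3′ on the coding strand, 33 bases each, with the codons for the 3 histidines, the glutamate and codon 8 in capitals.
Mmp2: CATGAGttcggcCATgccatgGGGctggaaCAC
Mmp14: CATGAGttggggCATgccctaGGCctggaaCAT
Mmp9: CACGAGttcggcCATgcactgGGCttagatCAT
Mmp13: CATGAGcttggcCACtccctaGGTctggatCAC
Adamts1: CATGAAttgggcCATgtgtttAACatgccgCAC
Adamts5: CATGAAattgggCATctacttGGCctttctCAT
Adamts6: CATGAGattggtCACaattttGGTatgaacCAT
Adamts10: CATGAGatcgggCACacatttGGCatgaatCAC
Mmp2 and Mmp14 shared 27 of the 33 bases, Adamts6 and Adamts10 shared 26, and Mmp2 and Adamts5 shared 18. In all 22 MMPs the site lay within 1 exon, whereas in all 18 ADAMTS proteases that held it the site was split over 2 exons. In mm10 the Mmp2 site is in exon 8 (chr8:92839279-92839311, plus strand), the Mmp9 site in exon 8 (chr2:164951133-164951165, plus strand), the Mmp14 site in exon 5 (chr14:54437627-54437659, plus strand) and the Mmp13 site in exon 5 (chr9:7276573-7276605, plus strand).

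Expression was measured by poly(A) RNA sequencing of each library, with 15916045 to 20609420 reads on genes. Values are in RPM, reads per 1000000 mapped reads, and levels are compared between genes only after division by the summed length of their exons (RPM per kb of exon). Means are given with SD, n = 3 libraries per genotype, and the SD and p-values measure only the spread between these libraries. Control libraries 1 to 3 held Bmpr1a at 121, 139 and 150 RPM and mutant libraries at 108, 120 and 111 RPM. Every mutant library lay below every control library, though closely (120 against 121 RPM), as in 1.67% of all genes tested. The fitted change was -0.27 on the log2(RPM + 1) scale (SE 0.14, unadjusted limma p 0.0910). In bulk tissue fewer cells of a type and less RNA per cell cannot be told apart.

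Of the 50 members, 36 had a mean of at least 1 RPM and were tested. Another 8 had some reads but a mean below that level (Adamts8, Adamts13, Adamts16, Mmp3, Mmp8, Mmp12, Mmp25 and Timp4). The remaining 6 (Mmp1a, Mmp1b, Mmp7, Mmp10, Mmp21 and Mmp27) had 0 reads in all 6 libraries. A count of 0 allows up to 3 reads, 0.0987 to 0.126 RPM depending on the library, and covers counting error only. All 19 ADAMTS and all 5 ADAMTS-like genes had reads.

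Levels were dominated by a short list of genes. Timp2, an inhibitor that also helps to activate pro-MMP2, stood at 164 ± 28.7 RPM per kb in controls and 146 ± 22.3 in mutants. Mmp2, gelatinase A, stood at 165 ± 32.0 RPM per kb in controls and 136 ± 42.9 in mutants. Mmp14, the membrane-bound activator of pro-MMP2, stood at 73.0 ± 4.38 and 68.7 ± 6.61 RPM per kb. These genes encode the 3 partners of the known cell-surface complex that activates pro-MMP2, and per length they were the 3 most abundant members. The difference between Timp2 and Mmp2 was smaller than the spread of either gene between libraries. Next came Timp3, a matrix-bound inhibitor, at 26.3 ± 10.7 and 27.99 ± 2.87 RPM per kb. Mmp11, Adamts2, Timp1 and Mmp13 had means over all 6 libraries of 16.2, 16.2, 16.2 and 14.7 RPM per kb, too close to order. In the plot of levels per length the bars fall steeply after Mmp14.

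**Figure D1:**
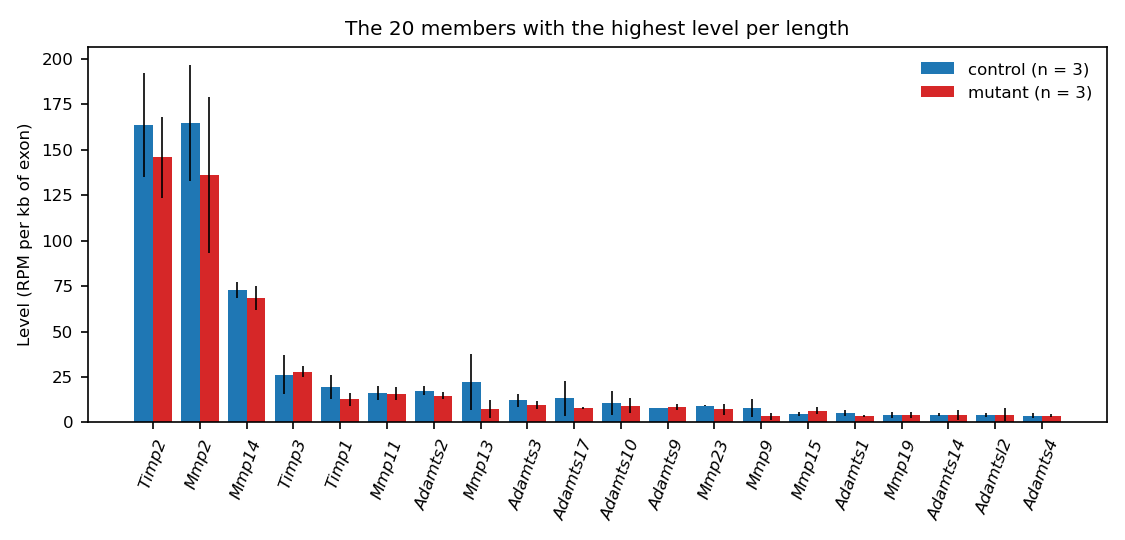
The 20 members with the highest mean level per length, as RPM per kb of exon on a linear axis that starts at 0. Bars are means of the 3 control and 3 mutant libraries and lines are SD; Timp2 and Mmp2 exceed 130 RPM per kb in both genotypes while most other members are under 25.

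Summed per length over each family, the MMPs made up 295 to 333 RPM per kb in controls and 222 to 287 in mutants, ranges that did not overlap. Mmp2 and Mmp14 together supplied 71.7% to 82.7% of that sum in each library, but their own sum overlapped between genotypes, at 276, 216 and 222 RPM per kb in controls and 164, 214 and 237 in mutants. The other MMPs summed to 57.6, 79.0 and 87.5 RPM per kb in controls and 58.0, 51.7 and 49.5 in mutants, highest in controls 2 and 3, where Mmp13 and Mmp9 were also highest. The TIMPs summed to 177 to 239 RPM per kb in controls and 165 to 215 in mutants, of which Timp2 and Timp3 supplied 84.6% to 95.1%. The ADAMTS proteases summed to 82.7, 91.4 and 84.4 RPM per kb in controls and 80.4, 76.2 and 59.7 in mutants, which also did not overlap. The ADAMTS-like genes summed to 12.7 ± 4.73 and 12.3 ± 4.82. These sums were not tested.

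The members varied between libraries more than most genes did. The median SD over the 6 libraries was 0.49 on the log2(RPM + 1) scale for the 36 tested members and 0.23 for all 14444 tested genes. Adamtsl2 spanned 18.6-fold from its lowest to its highest library, Adamts18 9.07-fold and Mmp13 8.44-fold. Mmp14 spanned 1.24-fold, Mmp24 1.35-fold and Adamts9 1.46-fold. In the plot of all tested members these differences show as tight and wide rows of points.

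**Figure D2:**
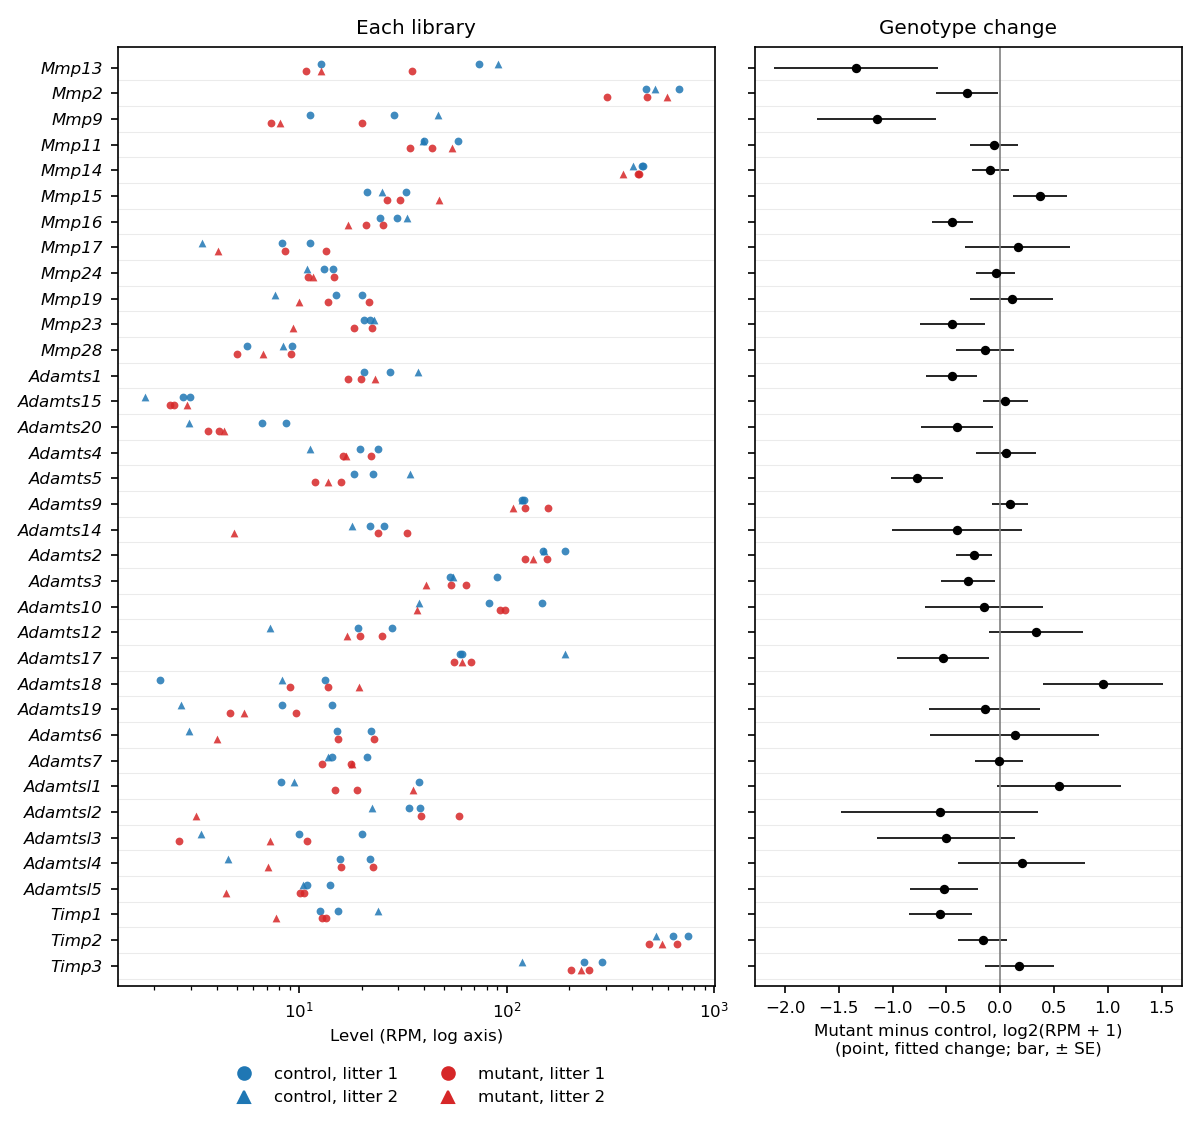
Left, level of each of the 36 tested members in each library (RPM, log axis), controls in blue and mutants in red, litter 1 as circles and litter 2 as triangles. Right, fitted difference of mutants from controls in log2(RPM + 1), with bars of ± SE and values below 0 where mutants are lower; for Adamts5 all 3 red points lie to the left of all 3 blue points.

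The comparison of genotypes sets mutants, which carried Gli1-CreER, against controls labelled with the floxed alleles alone. An effect of Gli1-CreER itself cannot be told apart from one of Bmpr1a loss, because no control was labelled with Gli1-CreER. Gli1 had 34.9, 30.4 and 63.7 RPM in controls and 28.7, 19.8 and 26.6 RPM in mutants. All mutants lay below all controls for Gli1. Its change was -0.70 on the log2(RPM + 1) scale (SE 0.29, unadjusted limma p 0.0460), and the cause was not tested. At an unadjusted p under 0.05 (limma), 1 of the 36 tested members differed, Adamts5, against 1.05% of all 14444 genes tested (152 genes). By direction, 1 of 36 was lower in mutants, against 0.692% of all genes, and 0 of 36 were higher, against 0.36%. That share of the members is close to the background. After Benjamini-Hochberg adjustment over all genes limma called 0 genes, and the smallest adjusted p was 1.00. The fitted change was below 0 in 24 of 36 members and in 54.4% of all genes. The median change was -0.15 for the members and -0.01 for all genes tested, on the log2(RPM + 1) scale used for every change below. That scale understates the change of low genes.

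Adamts5, an aggrecan-cleaving protease also called aggrecanase-2, had 18.3, 22.6 and 34.0 RPM in controls 1 to 3 and 15.9, 11.9 and 13.7 RPM in mutants 1 to 3. All mutants lay below all controls, and it was the only member whose genotypes did not overlap, against 2.64% of all genes (1.67% with mutants below controls). Means were 25.0 ± 8.12 RPM in controls and 13.8 ± 2.00 RPM in mutants, a change of -0.77 (SE 0.24, unadjusted p 0.0149, adjusted p 1.00; limma with Benjamini-Hochberg). In litter 1 the change was -0.53, and in litter 2, which has 1 library per genotype, it was -1.25. Its unadjusted limma p rose to 0.0501 in litter 1 alone and to 0.0502 without mutant 2, and was 0.00192 to 0.0378 in the other alternatives.

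Adamts1, another proteoglycan-cleaving protease, is the neighbour of Adamts5 on chromosome 16 (mm10; Adamts1 at 85793827 to 85803113, Adamts5 at 85856173 to 85901828, both on the minus strand, 53060 bp apart). It had 27.4, 20.5 and 37.3 RPM in controls and 17.2, 19.9 and 23.1 RPM in mutants. Mutant 3 lay above control 2, so the genotypes overlapped. The change was -0.45 (SE 0.23, unadjusted limma p 0.0946), and it ran from -0.66 to -0.24 with 1 library left out. With litter as a block, 3 members were under 0.05 (Adamts1, Adamts5 and Adamtsl5, all lower in mutants), against 2.02% of all genes in that fit.

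Among the other tested proteoglycan-cleaving genes, Adamts20 was lower (change -0.40), and Adamts4, Adamts9 and Adamts15 were higher (0.05, 0.09 and 0.05). Over all 6 tested members of this group, Adamts1 and Adamts5 included, the changes ran from -0.77 to 0.09, and 3 were lower. Adamts9, a versican-cleaving enzyme, had 121, 119 and 119 RPM in controls and 158, 123 and 108 RPM in mutants. The controls agreed closely and the mutants lay on both sides of them (change 0.09, SE 0.17). About 12.0% of its exon bases overlap other annotated genes.

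The procollagen N-proteinases, which trim the N-terminal propeptide from fibrillar procollagens, are Adamts2, Adamts3 and Adamts14. All 3 had lower mutant means and none passed the unadjusted threshold. Adamts2 had 191, 149 and 151 RPM in controls and 157, 123 and 134 RPM in mutants, with mutant 1 above controls 2 and 3 (change -0.24, SE 0.16). Adamts3 had 53.3, 89.5 and 55.2 RPM in controls and 53.8, 63.6 and 40.8 RPM in mutants, so the genotypes overlapped. Its change was -0.30 (SE 0.25), and -0.44 to -0.06 with 1 library left out. Adamts14 had 21.9, 25.6 and 17.9 RPM in controls and 33.01, 24.1 and 4.86 RPM in mutants, where mutant 3 alone was low (change -0.40, SE 0.61). Without mutant 3 the change of Adamts14 was 0.37.

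Among the gelatinases, Mmp2 had 677, 470 and 518 RPM in controls and 306, 477 and 594 RPM in mutants. The lowest library was a mutant, yet mutant 3 exceeded controls 2 and 3 (change -0.31, SE 0.29, unadjusted limma p 0.323). Its change was -0.04 without mutant 1 and -0.52 without mutant 3. Mmp14 had 448, 453 and 405 RPM in controls and 434, 431 and 364 RPM in mutants (change -0.09, SE 0.17). Both members thus overlapped between genotypes. Among the 5 tested membrane-type MMPs the changes ran from -0.44 to 0.37 and none passed. The lowest was Mmp16, named here after its values were seen, at 24.5, 29.6 and 33.1 RPM in controls and 20.9, 25.4 and 17.3 RPM in mutants (unadjusted limma p 0.0512). Mmp15 was the highest, at 32.6, 21.2 and 25.0 RPM in controls and 30.7, 26.6 and 47.2 RPM in mutants. For Mmp16 the genotypes overlapped only through mutant 2, which lay above control 1, and for Mmp15 they overlapped broadly.

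Mmp11, stromelysin-3, a protease typical of stromal cells, had 58.1, 39.8 and 39.3 RPM in controls and 34.1, 43.5 and 54.5 RPM in mutants, with full overlap (change -0.06, SE 0.23). The TIMPs overlapped as well. Timp2 had 637, 750 and 526 RPM in controls and 487, 660 and 559 RPM in mutants (change -0.16, SE 0.23). Timp3 had 288, 237 and 118 RPM in controls and 204, 251 and 229 RPM in mutants (change 0.18, SE 0.32), and only control 3 stood apart. Without control 3 its change was -0.20. Of the exon bases of Timp3, 21.3% overlap Syn3, in one of whose introns it lies. Timp1, an inhibitor of most soluble MMPs, had 12.6, 15.4 and 24.1 RPM in controls and 13.5, 12.9 and 7.71 RPM in mutants (change -0.56, SE 0.30, unadjusted limma p 0.102). Its highest library was control 3 and its lowest mutant 3, both of litter 2. In litter 1 alone the change of Timp1 was -0.07, and with 1 library left out it ran from -0.75 to -0.30. Timp4 had at most 0.63 RPM in any library and was not tested.

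The changes of largest size belonged to Mmp13 and Mmp9. Mmp13, collagenase-3, the main collagenase that cuts fibrillar collagen in rodents, had 12.8, 73.9 and 91.3 RPM in controls and 35.0, 10.8 and 12.8 RPM in mutants. Mmp9, gelatinase B, known from osteoclasts, had 11.2, 28.6 and 46.6 RPM in controls and 20.1, 7.29 and 8.05 RPM in mutants. For both genes control 3 was highest, followed by control 2 and then mutant 1, and control 1 lay among the low libraries, so the genotypes overlapped. Means for Mmp13 were 59.3 ± 41.2 RPM in controls and 19.5 ± 13.4 RPM in mutants (change -1.34, SE 0.76, unadjusted limma p 0.119). Means for Mmp9 were 28.8 ± 17.7 and 11.8 ± 7.17 RPM (change -1.15, SE 0.55, unadjusted limma p 0.0746). Within litter 1 the changes were -0.64 for Mmp13 and -0.52 for Mmp9, and within litter 2 they were -2.74 and -2.39. The term for the difference in genotype change between litters had an unadjusted p under 0.05 (limma) for 8 of 36 members, against 5.06% of all genes, and Mmp9 and Mmp13 were not among the 8 (unadjusted limma p 0.102 and 0.205). Without control 1, the change of Mmp13 was -2.21 (unadjusted limma p 0.00316) and that of Mmp9 -1.69 (unadjusted limma p 0.00886). These were the strongest values with 1 library left out, and the weakest were -0.83 for Mmp13 and -0.71 for Mmp9. Over all 17 alternatives, Mmp13 was under an unadjusted p of 0.05 (limma) in 1 and Mmp9 in 3.

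Some markers of osteoclasts and bone followed the same libraries and others did not. Acp5, the tartrate-resistant acid phosphatase of osteoclasts, had 13.3, 28.2 and 44.4 RPM in controls and 17.7, 10.6 and 12.7 RPM in mutants, the same order of the 6 libraries as Mmp9. Spp1, osteopontin, had 4.54, 96.1 and 159 RPM in controls and 3.36 to 5.20 RPM in mutants. Ibsp, bone sialoprotein, had 35.5, 65.9 and 154 RPM in controls and 23.6 to 29.9 RPM in mutants. In these 3 markers, chosen after their values were seen, controls 3 and 2 were the highest libraries, as for Mmp13. Other markers of the same lists went differently. Csf1r, the macrophage growth factor receptor, had 125, 158 and 56.9 RPM in controls and 93.9, 186 and 88.6 RPM in mutants, and Cd68 had its lowest library in control 3 (4.45 RPM) and its highest in mutant 2 (14.97 RPM). Of the 7 osteoblast markers, all 7 had a change below 0 in mutants, as did 54.4% of all genes, and 2 of them, Ibsp and Spp1, were under an unadjusted p of 0.05 (limma). Runx2, the transcription factor of osteoblasts, had 40.7, 53.3 and 69.0 RPM in controls and 52.3, 29.0 and 33.7 RPM in mutants, again the library order of Mmp9. Alpl and Sp7 were also highest in controls 2 and 3, whereas the osteocalcin genes Bglap and Bglap2 were highest in mutant 1, at 831 and 509 RPM. The whole osteoclast and macrophage list, of which 6 of 7 genes were in the table, summed to 247 to 367 RPM in controls and 212 to 371 RPM in mutants. Its defining fusion genes Dcstamp and Ocstamp were under 0.5 RPM in every library and at 0 in some. Ctsk, cathepsin K, had 141, 169 and 141 RPM in controls and 114, 159 and 102 RPM in mutants, an order that neither protease followed. The osteoblast list summed to 1066 to 2118 RPM in controls and 558 to 2031 RPM in mutants. Neutrophils also make Mmp9, and their list summed to 1.68 to 9.35 RPM, highest in mutant 2, with Ly6g at 0 throughout. The part of these cell types in the values of Mmp9 and Mmp13 was not tested.

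**Figure D3:**
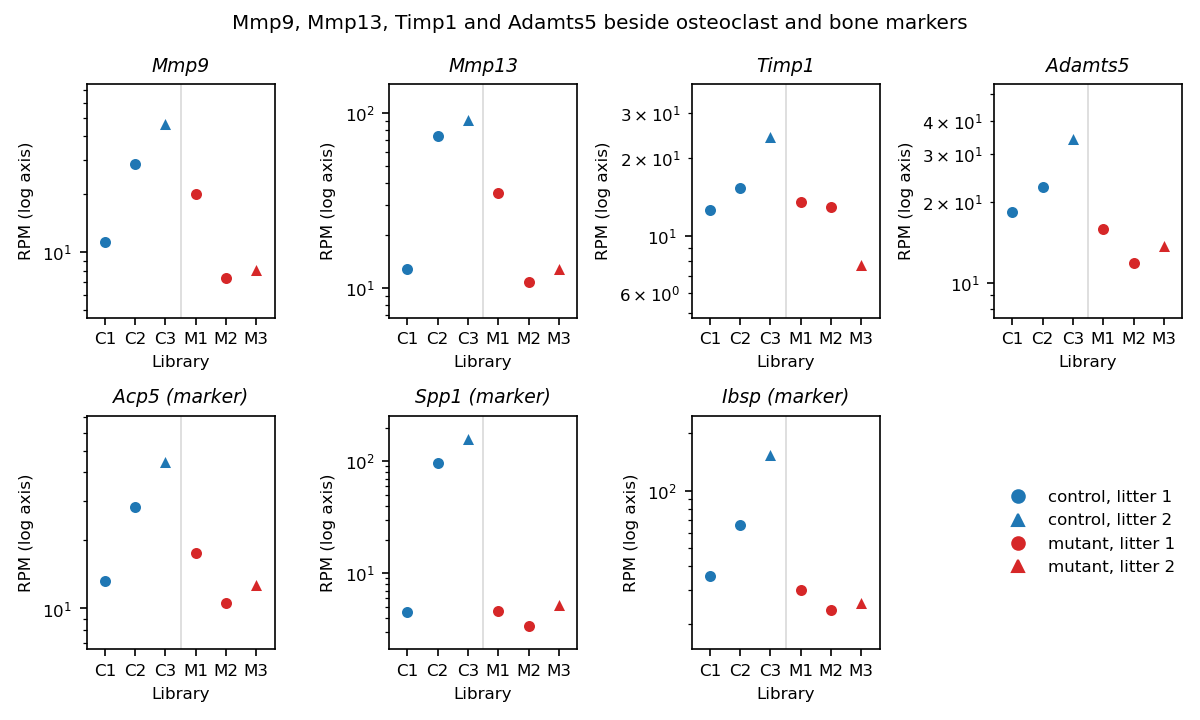
Levels of Mmp9, Mmp13, Timp1 and Adamts5 above those of the marker genes Acp5, Spp1 and Ibsp, in RPM on log axes whose ranges differ between panels, for controls C1 to C3 and mutants M1 to M3. Circles are litter 1 and triangles litter 2; controls C2 and C3 are the highest libraries for every marker and for Mmp9 and Mmp13.

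Mmp13 lies at one end of a cluster of 9 members on chromosome 9 (mm10, 7272514 to 7699585), with Mmp12, Mmp1b, Mmp3, Mmp1a, Mmp10, Mmp8, Mmp27 and Mmp7. Of these 9 genes only Mmp13 was tested, and 5 had no reads in any library. Mmp3 reached at most 0.293 RPM, Mmp12 at most 0.320 RPM and Mmp8 at most 0.965 RPM. The 130 bases before the start of Mmp13 and of its neighbours Mmp3 and Mmp10 are shown because all 3 hold the AP-1 motif TGAGTCA (or its reverse complement TGACTCA), in capitals, and Mmp13 also holds the Runx motif TGTGGT, in capitals as its reverse complement ACCACA. They are RefSeq promoters of GRCm38.p6, 5′ to 3′ on the plus strand.
Mmp13, chr9:7272384-7272513: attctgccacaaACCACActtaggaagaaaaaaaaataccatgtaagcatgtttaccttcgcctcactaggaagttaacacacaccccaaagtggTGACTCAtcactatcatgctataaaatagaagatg
Mmp3, chr9:7445692-7445821: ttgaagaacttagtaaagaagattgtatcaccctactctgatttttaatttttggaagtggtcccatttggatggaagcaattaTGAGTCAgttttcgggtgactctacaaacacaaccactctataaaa
Mmp10, chr9:7502212-7502341: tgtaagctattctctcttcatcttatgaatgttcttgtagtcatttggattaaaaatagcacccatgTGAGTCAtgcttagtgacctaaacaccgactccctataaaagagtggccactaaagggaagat
The AP-1 letters begin 35 bases before the start of Mmp13, 46 before Mmp3 and 63 before Mmp10. RefSeq promoters were found for 35 of the 50 members, and the 250 bases before the start were searched on both strands, each motif counted on its own whether or not it overlapped another. Shares are of genes, and a gene with several promoters counts as holding a motif if any of them does. The AP-1 motif was in 7 of the 35 (Mmp1a, Mmp1b, Mmp3, Mmp7, Mmp10, Mmp12 and Mmp13), all in the chromosome 9 cluster, and in 5.16% of all 27025 genes. The Runx motif was in 6 of the 35 (Mmp13, Mmp14, Mmp1b, Mmp23, Mmp27 and Mmp7) and in 15.9% of all genes. The Sp1 motif GGGCGG was in 20 of the 35, none of them in the cluster, and in 35.4% of all genes. The Smad motif GTCTAGAC, an 8-letter palindrome, was in 0 of the 35 and in 54 of all 27025 genes. The letters GGCGCC, searched as a BMP element, were in 6 of the 35 (Adamts2, Adamts9, Adamts14, Adamtsl5, Mmp11 and Mmp23) and in 10.8% of all genes. A match is a match of letters only.

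The other ADAMTS proteases and the ADAMTS-like genes moved in both directions between genotypes. Adamts18 had the largest positive change, at 13.4, 2.13 and 8.23 RPM in controls and 13.8, 9.05 and 19.4 RPM in mutants (change 0.96, SE 0.55, unadjusted limma p 0.127). Control 2 alone was low for it, and without control 2 the change was 0.33, whereas without control 1 it was 1.43 (unadjusted limma p 0.0304). Adamtsl1 had 37.9, 8.22 and 9.43 RPM in controls and 19.0, 14.9 and 35.5 RPM in mutants (change 0.54, SE 0.58), with control 1 highest of all. Without control 1 its change was 1.21 (unadjusted limma p 0.0150), and without control 2 it was 0.17. Adamts12, a protease also known to cut cartilage oligomeric matrix protein, had 27.9, 19.3 and 7.20 RPM in controls and 19.6, 25.2 and 16.9 RPM in mutants (change 0.33, SE 0.44). Adamts17 had 59.5, 61.2 and 190 RPM in controls and 67.2, 55.7 and 60.7 RPM in mutants (change -0.53, SE 0.43). Control 3 alone stood high for it, and without control 3 its change was 0.02. With the enamel covariate, the mean log2 level of the enamel epithelium markers added to the fit, it was -0.78 (unadjusted limma p 0.0385).

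More members passed the unadjusted threshold between litters than between genotypes. Between litter 2 (control 3 and mutant 3) and litter 1 (the other 4 libraries), at equal genotype, 10 of 36 tested members had an unadjusted p under 0.05 (limma), 9 lower and 1 higher in litter 2. Among all genes 20.9% did (3026 genes), 13.7% lower and 7.21% higher. The libraries of the litters did not overlap for 9 of 36 members and for 35.5% of all genes. After Benjamini-Hochberg adjustment over all genes 2 members passed, Adamts6 and Adamtsl4, against 0.872% of all genes. Of the 10 members, all moved the same way in controls and in mutants. Of the genes under 0.05, 65.6% were lower in litter 2 with the deposited scaling, 52.8% with median-of-ratios scaling and 51.8% with quantile scaling, and under those scalings 0 members passed adjustment. The direction of each of the 10 members was the same under both.

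Adamts6, a protease required for normal heart and skeletal development in mice, had 15.3, 22.3, 15.4 and 22.9 RPM in litter 1 (controls 1 and 2, then mutants 1 and 2). It had 2.93 RPM in control 3 and 4.02 RPM in mutant 3. Both litter 2 libraries lay far below all 4 others (change -2.14, SE 0.24, adjusted p 0.0336; limma with Benjamini-Hochberg), and the genotypes overlapped within litter 1. Its close relative Adamts10, which binds fibrillin microfibrils, had 82.7, 148, 97.9 and 93.3 RPM in litter 1, 37.6 RPM in control 3 and 37.0 RPM in mutant 3 (change -1.44, SE 0.23, adjusted p 0.0525; limma with Benjamini-Hochberg). The same libraries were low for both relatives, whose zinc sites are printed above.

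Adamtsl4, an ADAMTS-like protein of fibrillin microfibrils, had 21.9, 15.8, 15.8 and 22.6 RPM in litter 1, 4.52 RPM in control 3 and 7.08 RPM in mutant 3 (change -1.57, SE 0.23, adjusted p 0.0480; limma with Benjamini-Hochberg). Again no litter 1 library came near the values of litter 2. The adjusted calls depended on single libraries. Without control 3, mutant 2 or mutant 3 the adjusted p was 0.149, 0.171 or 0.101 for Adamts6 and 0.289, 0.198 or 0.120 for Adamtsl4 (limma with Benjamini-Hochberg). Without control 1, control 2 or mutant 1 it was 0.0392, 0.0332 or 0.0454 for Adamts6 and 0.0574, 0.0750 or 0.0470 for Adamtsl4 (limma with Benjamini-Hochberg). Adamtsl2, likewise a microfibril-binding protein, had 33.9, 38.1, 59.2 and 38.6 RPM in litter 1, 22.6 RPM in control 3 and 3.19 RPM in mutant 3 (change -2.10, SE 0.60, unadjusted limma p 0.0114). Here mutant 3 was far lower than control 3, and without mutant 3 the litter change was -0.65 (unadjusted limma p 0.0616), without control 3 -3.54. Mmp17, a membrane-type MMP held by a lipid anchor, had 8.26, 11.3, 8.53 and 13.5 RPM in litter 1, 3.39 RPM in control 3 and 4.07 RPM in mutant 3 (change -1.25, SE 0.23, unadjusted limma p 0.00131). Mmp19 had 15.1, 20.1, 13.8 and 21.6 RPM in litter 1, 7.66 RPM in control 3 and 10.02 RPM in mutant 3 (change -0.91, SE 0.23). Neither gene overlapped between litters; without control 3 the change of Mmp19 was -0.73 (unadjusted limma p 0.0706), and 28.3% of the exon bases of Mmp19 overlap other genes.

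The other members lower in litter 2 were Adamts14 (change -1.35), Adamts12 (-0.97) and Adamtsl5 (-0.64), and the one higher was Adamts1 (0.47). Each of these 4 calls was lost when 1 library was left out. Without mutant 3 the change was -0.38 for Adamts14 (unadjusted limma p 0.187) and -0.23 for Adamtsl5 (0.398), and without control 3 it was -0.37 for Adamts12 (0.251) and 0.31 for Adamts1 (0.266). Adamtsl5 was also above 0.05 without control 2, mutant 1 or mutant 2 (0.0574, 0.0658 and 0.0773), and Adamts1 without control 2 or mutant 1 (0.0900 and 0.0587). With the enamel covariate the litter change was -0.68 for Adamts12 (unadjusted limma p 0.0884) and 0.44 for Adamts1 (0.0827), so both calls were lost there too. By role, litter 2 was lower at an unadjusted p under 0.05 (limma) for 3 of 5 ADAMTS-like genes, 3 of 7 tested other ADAMTS proteases, 1 of 3 procollagen N-proteinases, 1 of 5 tested membrane-type MMPs and 1 of 3 tested other MMPs. It was lower for 0 of 6 proteoglycan-cleaving ADAMTS proteases, 0 of 3 TIMPs, 0 of 2 gelatinases, 0 of 1 collagenases and 0 of 1 for Mmp11. Of all genes 13.7% were lower at that threshold. Adamts6, Adamts10, Adamtsl4 and Mmp17 were under 0.05 in 11 of 11 alternatives, and the other 6 members in 5 to 10 of 11.

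Odontoblast markers differed between the litters as well, in both directions. Dspp and Phex were lower in litter 2 (changes -4.03 and -3.47) and Dmp1 and Smpd3 higher (1.80 and 1.15). Each was at an unadjusted p under 0.05 (limma), as were 20.9% of all genes. None of the 4 passed adjustment (adjusted p 0.0629 to 0.229, limma with Benjamini-Hochberg). The list of 4 genes, in which Dspp was the largest term in every library except mutant 3, summed to 4609 to 7679 RPM in the 4 libraries of litter 1, 1476 RPM in control 3 and 314 RPM in mutant 3. Dspp, the defining gene of odontoblasts, had 4032, 4844, 6872 and 4642 RPM in litter 1, 817 RPM in control 3 and 113 RPM in mutant 3. The libraries ranked in the same order for Dspp and Adamts14, and mutant 3 was the lowest for Dspp, Adamtsl2, Adamts14 and Adamts10. For Adamts6, Adamtsl4, Mmp17 and Mmp19 control 3 was the lowest, below mutant 3. The enamel epithelium list summed to 2220 to 49399 RPM in litter 1 and to 39198 RPM in control 3 and 20498 RPM in mutant 3, so that sum, mostly Amelx and Ambn, overlapped between litters. Of its 9 genes 8 had a change above 0 in litter 2, as did 46.5% of all genes. Under an unadjusted p of 0.05 (limma) were 2 of the 9, Cdh1 and Krt14, against 20.9% of all genes. The epithelial genes Cdh1, Krt14 and Krt5 did not overlap between litters, nor did 35.5% of all genes, and the rest of the list overlapped. Cdh1 had 218 and 221 RPM in litter 2 and 15.5 to 124 RPM in litter 1. The dental mesenchyme list summed to 17799 to 30725 RPM in litter 1, 16362 RPM in control 3 and 6640 RPM in mutant 3. That sum is mostly Col1a1 (15516 RPM in control 1 and 4871 RPM in mutant 3), and of its 6 genes 3 were lower in litter 2. Litter 2 was also high in the erythroid list, at 1417 RPM in control 3 and 428 RPM in mutant 3, against 130 to 340 RPM in litter 1. The part of cell composition or developmental stage in the litter differences was not tested, and litter cannot be told apart from anything else that differed between its libraries.

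**Figure D4:**
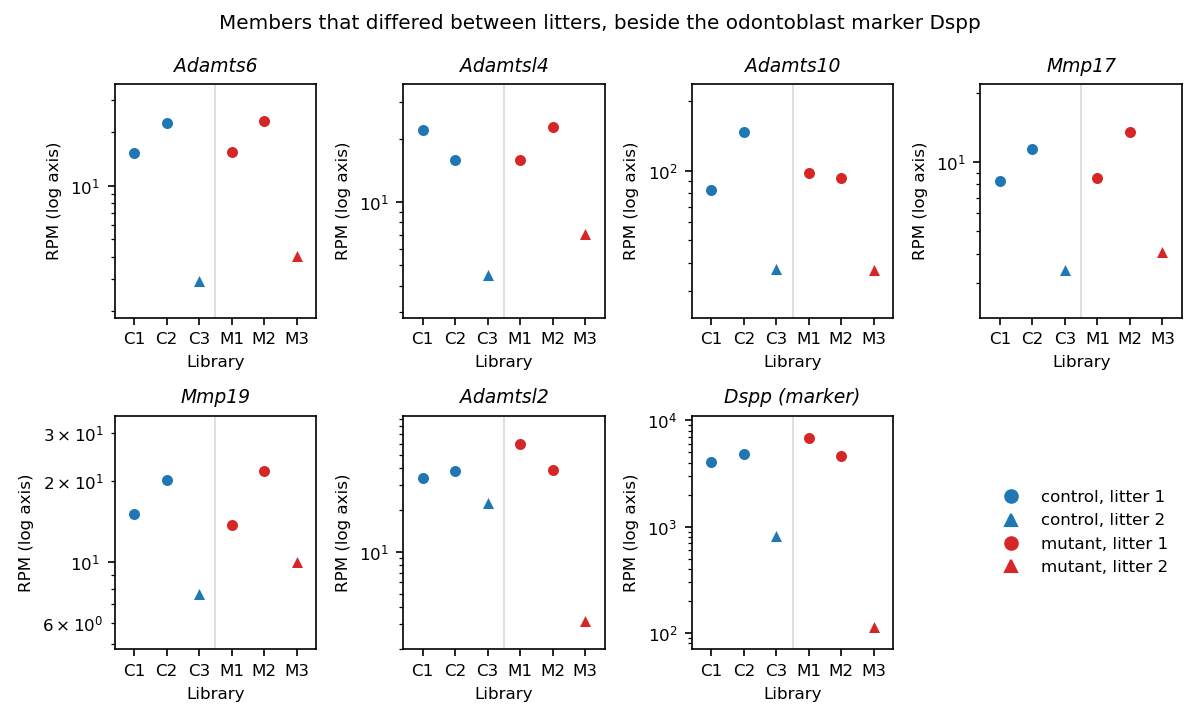
Levels of Adamts6, Adamtsl4, Adamts10, Mmp17, Mmp19 and Adamtsl2 and of the odontoblast marker Dspp, in RPM on log axes whose ranges differ between panels, for controls C1 to C3 and mutants M1 to M3. Triangles are litter 2 (C3 and M3), and in each panel both lie below the circles of litter 1.

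Other genes of the same system, 45 in a list of activators, inhibitors, related proteases and matrix substrates, gave a similar picture between genotypes. Of 43 tested, 29 had a change below 0 (54.4% of all genes did), the median change was -0.17, and 2 were under an unadjusted p of 0.05 (limma), both lower, against 1.05% of all genes. These were Adam12, a membrane protease of the related ADAM family, with 21.9 ± 4.24 RPM in controls against 13.6 ± 4.45 RPM in mutants (unadjusted limma p 0.0290), and Fbn2, fibrillin-2, at 320 ± 55.1 and 235 ± 16.8 RPM (unadjusted limma p 0.0455). For both genes all mutants lay below all controls. Of the 43 only these 2 did not overlap between genotypes, against 2.64% of all genes (1.67% with mutants below controls). Neither passed adjustment. Between litters 12 of the 43 were under 0.05, 8 of them lower in litter 2, against 20.9% and 13.7% of all genes, shares not far apart. Fap, a serine protease of activated fibroblasts, and Pcsk5, a convertase that processes proproteins, passed adjustment, 2 of 43 against 0.872% of all genes. Their changes were -1.95 (adjusted p 0.0445, limma with Benjamini-Hochberg) and -0.91 (adjusted p 0.0487, limma with Benjamini-Hochberg). No member passed adjustment under the other scalings, and values of these 2 genes under them are not given here.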

How the data were processed

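The authors deposited 1 table of 25899 gene symbols by 6 libraries, in log2 values and titled as normalized RPKM. Reads were aligned with TopHat2 and the build was mm10, per the submitters' processing notes; the counting program is not given in the sources used here. Raised as powers of 2, 100% of the values under 1000 reads were whole multiples (within 0.02 reads) of 1 step per column, and the column minimum was 0.9 of a step, taken as no reads. The deposited log2 values were therefore treated as log2 RPM with length not divided out; the denominator is inferred. On that scale 66.7% to 68.6% of reads lay on genes, and no column was left unused.

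The 14444 genes that averaged 1 RPM or more were analysed as log2(RPM + 1) in limma 3.58.1 under R 4.3.3 (mean-variance trend, two-sided, Benjamini-Hochberg), genotypes without a covariate and litters with genotype as one; an interaction term compared litters. The planned test assumed a linear unit and was applied to RPM. The fit was also run on simulated counts with the same dispersion for every gene and no litter effect. That setting differs from these data, so no conclusion is drawn from it. Replicate numbers come from the column names. Exon lengths and overlaps came from GENCODE M21; the planned protein motif search was made on coding DNA, for the zinc site only.

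The members and lists were chosen with earlier results of these data known. Named were members under an unadjusted p of 0.05 by genotype or litter, those whose genotypes did not overlap, the 5 largest rises and falls, the 10 highest means, the TIMPs, Mmp2, Mmp9, Mmp13 and Mmp14; others named singly were chosen after their values were seen. Alternatives were other pseudocounts, filters and scalings, limma voom on recovered reads, litter or replicate number as a block, litter 1 alone, enamel marker level as a covariate, and leaving out each library. Figures were drawn with matplotlib 3.10.9.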

Additional observations from a re-analysis of the deposited data

Results flagged for a closer look

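For 8 of the 36 tested members the genotype change differed between litters at an unadjusted p under 0.05 of the interaction term (limma), against 5.06% of all genes. None passed adjustment (adjusted p 0.501 to 0.907, limma with Benjamini-Hochberg), and litter 2 has 1 library per genotype, so each difference rests on control 3 and mutant 3. The values below are the change in litter 2 minus that in litter 1, on the log2(RPM + 1) scale. The mutant was relatively lower in litter 2 for Adamtsl2 (-2.90), Adamts14 (-1.93), Adamts17 (-1.65), Timp1 (-1.46) and Mmp23 (-1.17). It was relatively higher in litter 2 for Adamts20 (1.27), Adamts12 (1.19) and Timp3 (1.16). Adamtsl2 changed by 0.40 within litter 1 and by -2.49 within litter 2. Timp3 changed by -0.21 and 0.95. In 18 of the 36 members the change had opposite signs in the 2 litters, as it did in 63.5% of all genes.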

How the results depend on the processing

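Between genotypes, the genes under an unadjusted p of 0.05 numbered 152 in the reported fit, 347 with the enamel covariate, 319 in litter 1 alone, 292 with litter as a block, 344 with no filter, 524 with the replicate number as a block, and 68 to 325 with 1 library left out. The members under that threshold numbered 1 (Adamts5) in the reported fit, 3 with the enamel covariate (Adamts5, Adamts17 and Mmp9; against 2.40% of all genes in that fit), 3 with litter as a block (2.02%), 2 with a mean of at least 5 RPM (0.872%), 4 with the replicate number as a block (Adamts1, Adamts18, Adamts5 and Mmp16; 3.63%), and 1 to 6 with 1 library left out (6 without control 1, against 2.25% of all genes; 1, Mmp16, without mutant 2, against 1.81%). Same-numbered libraries deviated from their group means with correlations of -0.03, 0.75 and 0.50 across genes, so the numbers were not taken as pairs. The median member change stayed between -0.33 and -0.06. Signs turned with the enamel covariate for Adamts10 (0.088) and in litter 1 alone for Adamts12 (-0.063), Adamts14 (0.24), Adamts17 (0.019), Adamtsl1 (-0.086), Adamtsl2 (0.40), Mmp19 (-0.011) and Timp3 (-0.21). With 1 library left out the changes ran from -0.66 to 0.32 for Adamts10, -0.19 to 0.72 for Adamts12, -0.90 to 0.37 for Adamts14, -0.82 to 0.015 for Adamts17, -0.63 to 0.80 for Adamts6, -0.060 to 0.21 for Adamts9, -1.30 to 0.62 for Adamtsl2, -0.41 to 0.63 for Adamtsl4, -0.22 to 0.12 for Mmp11, -0.27 to 0.57 for Mmp17, -0.25 to 0.39 for Mmp19 and -0.20 to 0.44 for Timp3. Between litters, 3026 genes were under 0.05, and 1393 to 4248 with 1 library left out. The 2 members that passed adjustment became 0 with the enamel covariate, 0 with median-of-ratios scaling, 0 with quantile scaling and 0 to 3 with 1 library left out. The cause of these shifts was not tested. At these depths the 6 members without reads could hold up to 3 reads a library.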
